A study of Mus musculus with 79 samples.

Results

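The genes described here are 10 receptors for serotonin (5-hydroxytryptamine, 5-HT): Htr1a, Htr1b, Htr1d, Htr1f, Htr2a, Htr2c, Htr4, Htr5b, Htr6 and Htr7. They were taken by name from a table of 25899 genes, and all 10 are in it. Their mRNA was measured on the ribosomes of neurons that use a dopamine receptor promoter, in mouse brain. Each mouse carried a bacterial artificial chromosome (BAC) transgene in which the promoter of the dopamine D1a or D2 receptor drives enhanced green fluorescent protein fused to the ribosomal protein L10a. Tagged ribosomes were pulled out of the homogenised tissue with an antibody to the fluorescent protein, so a transcript is read in the cells where the transgene is active and only there, apart from RNA carried along. The 5 groups were the D1 line in dorsal striatum (15 libraries), the D2 line in dorsal striatum (16), the D1 line in ventral striatum, punched from the nucleus accumbens (15), the D2 line in ventral striatum (14) and the D1 line in prefrontal cortex (19). In every group the lines were heterozygous on a C57BL/6J background, a library pooled the tissue of 3 mice, and the labels give neither an age nor a drug treatment. The pools were of both sexes, though the label of 2 prefrontal libraries does not give the sex of all 3 mice. A D2 group of prefrontal cortex was not analysed here, nor was any input RNA or pulldown from mice without the transgene.

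Serotonin reaches the striatum and the cortex through the axons of the raphe nuclei, and the cells that receive it respond according to the receptors they carry. Receptors of the 5-HT1 family couple to inhibitory Gi and Go proteins and lower cyclic AMP, and Htr1b and Htr1d also serve as receptors on axon terminals. Htr2a and Htr2c couple to Gq and phospholipase C. Htr4, Htr6 and Htr7 couple to Gs or its striatal counterpart and raise cyclic AMP, and transcripts of Htr2c are changed by RNA editing.

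On GRCm38 with the GENCODE M21 annotation, Htr1b lies at chr9:81628291-81633828 on the minus strand, Htr1d at chr4:136423524-136444398 on the plus strand, Htr2a at chr14:74640840-74709494 on the plus strand and Htr2c at chrX:146962513-147197277 on the plus strand. Htr1a lies at chr13:105443639-105448122 on the plus strand, in 1 exon. An exon of Htr1b is overlapped on the opposite strand by the antisense gene D430036J16Rik, which is not in the table. Whether reads were counted by strand is not given in the sources used here, so reads of that partner cannot be told apart from those of Htr1b. The DNA just before the start of the 4 receptors on which most results turn is printed here to show what their promoters look like, since Htr1b and Htr1d moved one way between striatum and cortex and Htr2a the other. The sequences are RefSeq's, on GRCm38.p6, each 5′ to 3′ on the strand of its gene, and 8 of the 10 receptors had an entry. The stretch of Htr2a is shortened to the 216 bases before the annotated gene, and of 2 windows listed for Htr1d the one that lies outside the gene is printed. Capitals mark a GC box, searched as GGGCGG on both strands; a match is a match of letters and not a shown binding site.
Htr1b, chr9:81633833-81634082, minus strand: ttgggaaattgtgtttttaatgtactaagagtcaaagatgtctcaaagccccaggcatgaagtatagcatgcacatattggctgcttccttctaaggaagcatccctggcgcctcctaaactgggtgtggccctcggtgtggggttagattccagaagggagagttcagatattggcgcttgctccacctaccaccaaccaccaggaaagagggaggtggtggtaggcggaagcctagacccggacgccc
Htr1d, chr4:136423274-136423523, plus strand: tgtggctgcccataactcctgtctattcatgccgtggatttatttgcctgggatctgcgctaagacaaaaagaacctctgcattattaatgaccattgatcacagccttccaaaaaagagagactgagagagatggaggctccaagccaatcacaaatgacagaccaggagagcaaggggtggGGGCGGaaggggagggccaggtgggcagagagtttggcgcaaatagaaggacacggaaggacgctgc
Htr2a, chr14:74640624-74640839, plus strand: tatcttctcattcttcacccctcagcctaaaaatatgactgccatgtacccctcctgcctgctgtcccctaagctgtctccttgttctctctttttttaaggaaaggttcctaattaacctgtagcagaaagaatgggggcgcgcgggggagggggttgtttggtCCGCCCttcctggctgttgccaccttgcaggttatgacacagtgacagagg
Htr2c, chrX:146962263-146962512, plus strand: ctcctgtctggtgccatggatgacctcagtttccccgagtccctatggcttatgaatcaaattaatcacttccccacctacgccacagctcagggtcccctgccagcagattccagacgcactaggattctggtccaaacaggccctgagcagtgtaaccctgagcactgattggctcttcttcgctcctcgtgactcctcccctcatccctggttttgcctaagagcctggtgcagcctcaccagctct
The printed windows of Htr1d and Htr2a held 1 GC box each, those of Htr1b and Htr2c held 0, the second window of Htr1d held 3, and 32.7% of 32851 promoter windows in the RefSeq table held at least 1. A TATA box, searched as TATAAA on both strands, was in none of the 4 windows and in 12.4% of all windows. The cyclic AMP response element, TGACGTCA, and its shorter core TGACG, which lies inside it, were also in none of the 4, against 1.55% and 17.8% of all windows.

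The deposited values are CPM, the reads of a gene scaled to a common total per library. Reads in genes ran from 7.35 to 30.8 M per library (median 17.5 M, M for mega), and 3 reads were worth between 0.0373 and 0.140 CPM. Markers went with the labelled lines in the striatum: the summed D1 neuron markers averaged 693 and 571 CPM in the D1 libraries of dorsal and ventral striatum against 40.5 and 49.5 CPM in the D2 libraries, and the D2 neuron markers averaged 67.0 and 154 CPM against 3795 and 2304 CPM. In the D1 prefrontal libraries these striatal D1 markers averaged 55.0 CPM and cortical projection neuron markers (Slc17a7, Neurod6, Neurod2 and Tbr1) 546 CPM. The cortical markers were not at 0 in striatum: they averaged 75 CPM (23.9 to 107) in D1 and 7.97 CPM in D2 libraries of dorsal striatum, and 54.0 CPM and 12.8 CPM in ventral striatum. Cholinergic interneuron markers averaged 7.11 and 11.4 CPM in the D2 groups and at most 1.44 CPM in the D1 groups. Oligodendrocyte markers averaged 76.2 CPM in D1 and 115 CPM in D2 libraries of dorsal and 49.4 and 93.6 CPM in ventral striatum, with 2 of 3 tested called lower in D1 in each region, as several receptors were, and their part in the line differences was not tested. GABA interneuron markers averaged 29.3 and 10.7 CPM in D1 and D2 dorsal and 18.4 and 19.9 CPM in D1 and D2 ventral striatum. Of 4 tested, 3 were called higher in D1 in dorsal and 1 lower in ventral striatum. Between regions 3 were called higher and 1 lower in the dorsal part in D1, and 3 lower in D2 libraries. Their part was not tested either. Choroid plexus markers averaged 10 and 14.4 CPM in D1 and D2 dorsal and at most 4.29 CPM in the other groups, while serotonin neuron genes averaged at most 0.191 CPM in any group, with Slc6a4 at 0 in every dorsal striatal library. Over all genes, libraries 13 and 4 of D1 dorsal striatum and library 6 of D2 dorsal striatum lay farthest from their groups, and libraries 6 and 7 of D2 ventral striatum held the lowest values of several receptors. These are bulk samples, so fewer cells with a receptor and less of its RNA per cell cannot be told apart. P-values measure the spread between pools.

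**Figure D1:**
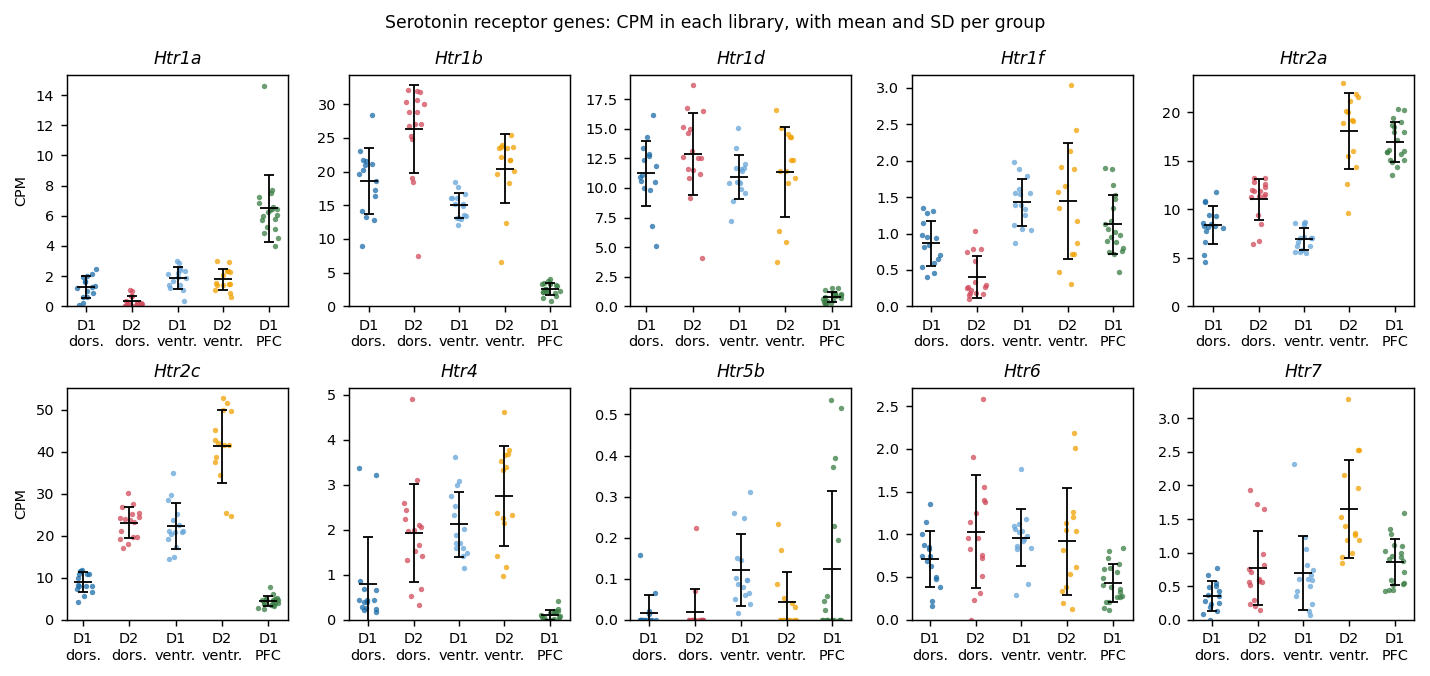
CPM of each receptor in each library on linear axes that start at 0 and differ between panels, by group, with every point a library and the black marks the group mean and SD. Htr1b, Htr1d, Htr2a and Htr2c are at 1 CPM or more in every striatal library, and Htr5b is below 1 CPM in all 79 libraries.

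Across the 5 groups the receptors fell into a well read set and a sparse one. Htr1b, Htr2a and Htr2c averaged at least 2.61 CPM in every group, and Htr1d averaged at least 10.9 CPM in each striatal group. Htr1f, Htr4, Htr6 and Htr7 averaged at most 2.75 CPM, and Htr5b, a receptor with little known signalling, averaged at most 0.125 CPM, never reached 1 CPM in a library and was not tested. Htr1a lay between them, with a mean of 0.328 to 1.9 CPM in striatum and 6.49 CPM in cortex. In each comparison the 2 groups were set against each other with limma on log2(CPM + 0.5), over all genes that reached 1 CPM in a number of libraries no smaller than the smaller group. Differences are therefore on that scale, which understates changes of low genes, and p-values are Benjamini-Hochberg adjusted over all genes tested, with a gene called below 0.05. Some receptors reached this minimum mainly through the group where they were higher, so the counts given below describe the tested receptors and not all 10.

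Htr2c separated the lines in both parts of the striatum and the regions in both lines, being lowest in D1 neurons of dorsal striatum and highest in D2 neurons of ventral striatum. In D1 dorsal striatum its lowest, median and highest library stood at 4.24, 8.32 and 11.9 CPM. In D2 dorsal striatum they stood at 17, 23.8 and 30.1 CPM, in D1 ventral striatum at 14.4, 21.2 and 34.9 CPM, and in D2 ventral striatum at 24.6, 41.9 and 52.7 CPM. Every D2 library of dorsal striatum, and every D1 library of ventral striatum, thus lay above every D1 library of dorsal striatum, and 11 of 14 D2 libraries of ventral striatum lay above all D1 libraries there. Htr2c was lower in D1 than in D2 libraries by a log2 difference of -1.36 (SE 0.12, limma adjusted p = 1.74e-11) in dorsal and -0.88 (SE 0.12, limma adjusted p = 7.04e-07) in ventral striatum. Between regions it was lower in dorsal than in ventral striatum by -1.29 (SE 0.13, limma adjusted p = 7.65e-10) in the D1 and -0.81 (SE 0.11, limma adjusted p = 2.62e-07) in the D2 line. The line difference in the dorsal minus that in the ventral striatum, the interaction of receptor and region, was -0.48 (SE 0.17) and missed the threshold (limma adjusted p = 0.124, interval -0.82 to -0.14), though it was called with the letters of the library name as a covariate (-0.50, adjusted p = 0.0361). With the cortical marker sum as a covariate, the line differences were -1.27 in dorsal and -0.61 in ventral striatum and both were called, as were all 4 Htr2c differences under every alternative run.

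Htr2a, the other Gq-coupled receptor of the set, was lower in D1 than in D2 libraries in both regions, by more in ventral striatum. Its lowest, median and highest library were 4.55, 8.32 and 11.8 CPM in D1 and 6.48, 11.7 and 13.3 CPM in D2 dorsal striatum, and the groups overlapped. In ventral striatum the D1 libraries ran from 5.47 to 8.65 CPM (median 7.02) and the D2 libraries from 9.58 to 23.0 CPM (median 19.1), with no overlap. Htr2a was lower in D1 libraries by -0.38 (SE 0.12, limma adjusted p = 0.0179) in dorsal and by -1.30 (SE 0.11, limma adjusted p = 1.99e-11) in ventral striatum. The interaction was 0.92 (SE 0.16, limma adjusted p = 0.00011), and was called in all 21 alternatives, at 0.74 to 1.12. By region, Htr2a was lower in dorsal than in ventral striatum in the D2 line, by -0.68 (SE 0.12, limma adjusted p = 4.68e-05), while in the D1 line the difference was 0.24 in the other direction and missed the threshold (limma adjusted p = 0.0795, interval 0.02 to 0.46). The size of the dorsal line difference depended on the setting. It was -0.32 with an adjusted p of 0.0647 when libraries were scaled to their reads in genes, and -0.27 with 0.0541 without D1 libraries 4 and 13 and D2 library 6. It was larger among EM libraries (-0.58, adjusted p = 0.00534) and with the cortical marker sum as a covariate (-1.09, SE 0.26, adjusted p = 0.0168), where the ventral difference stayed at -1.30. With that covariate fitted in each region apart the line differences were thus closer to each other than the interaction of 0.83 from the fit with 1 slope for all 4 groups, so the size of the interaction depends on how the covariate enters.

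**Figure D2:**
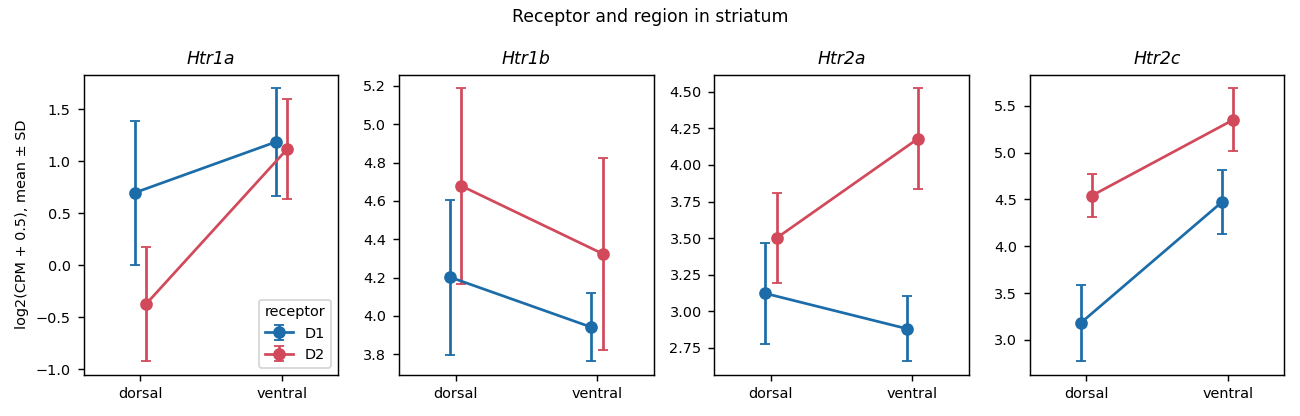
Mean log2(CPM + 0.5) of Htr1a, Htr1b, Htr2a and Htr2c in the 4 striatal groups, with SD bars and lines joining dorsal to ventral striatum for the D1 and the D2 line. For Htr2a the D2 line climbs from dorsal to ventral striatum and the D1 line does not; for Htr1a the D2 line climbs more steeply than the D1 line.

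The relation of the Gq-coupled pair within a library changed from group to group. Htr2a minus Htr2c, on the log2(CPM + 0.5) scale, averaged -0.06 ± 0.30 (SD, n = 15) in D1 dorsal striatum, with Htr2a the higher in 8 of 15 libraries. It averaged -1.04 ± 0.44 (SD, n = 16) in D2 dorsal, -1.59 ± 0.35 (SD, n = 15) in D1 ventral and -1.17 ± 0.35 (SD, n = 14) in D2 ventral striatum, and Htr2c was the higher in every one of those libraries. In D1 prefrontal cortex it averaged 1.86 ± 0.39 (SD, n = 19) and Htr2a was the higher in 19 of 19. These differences carry the lengths of both genes, so only their change between groups can be read.

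**Figure D3:**
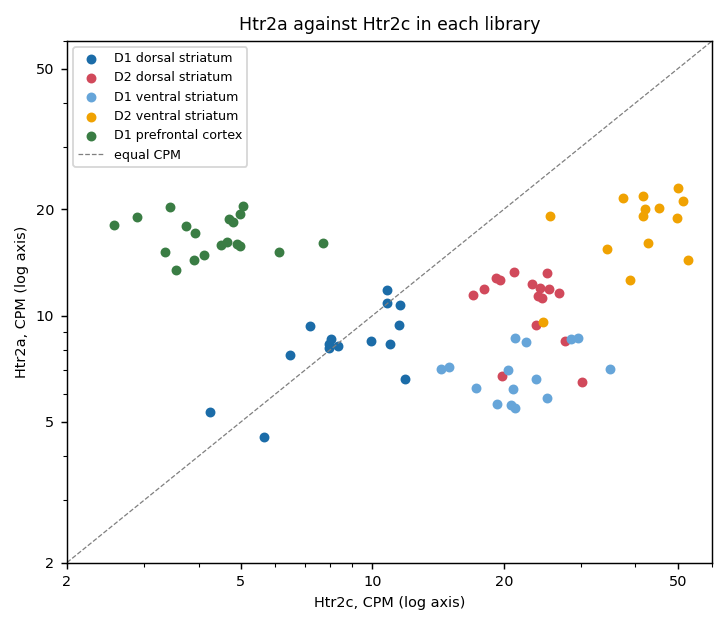
Htr2a against Htr2c in every library, both in CPM on logarithmic axes, coloured by group. Prefrontal libraries lie at low Htr2c and high Htr2a, D2 ventral striatal libraries are high in both, and D1 dorsal striatal libraries are low in both.

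Htr1b, a Gi-coupled receptor found on the axons of striatal projection neurons, was read highest in D2 neurons. Its lowest, median and highest library were 8.96, 19.7 and 28.4 CPM in D1 and 7.41, 28.0 and 32.2 CPM in D2 dorsal striatum. In ventral striatum they were 12, 15.1 and 18.5 CPM in D1 and 6.55, 21.9 and 25.4 CPM in D2. The groups overlapped in both regions, and library 6 of each D2 group lay below every D1 library, while 8 of 16 D2 libraries of dorsal and 11 of 14 of ventral striatum lay above all D1 libraries. Htr1b was lower in D1 libraries by -0.48 (SE 0.16, limma adjusted p = 0.0233) in dorsal and by -0.38 (SE 0.13, limma adjusted p = 0.0178) in ventral striatum. Both calls were lost when libraries were scaled to their reads in genes (-0.42 with an adjusted p of 0.0707 in dorsal, -0.27 with 0.0957 in ventral striatum), among the libraries whose names begin with EM (-0.36 with 0.325, and -0.27 with 0.223) and with the cortical marker sum as a covariate (-0.37 with 0.712, and -0.077 with 0.834). Between dorsal and ventral striatum the differences were 0.26 in D1 (limma adjusted p = 0.0674) and 0.35 in D2 neurons (limma adjusted p = 0.126), and neither passed.

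Htr1d, the close relative of Htr1b, did not pass any test between lines or between dorsal and ventral striatum. Its lowest, median and highest library were 5.14, 11.1 and 16.1 CPM in D1 and 4.06, 12.6 and 18.7 CPM in D2 dorsal striatum, and 7.18, 10.5 and 15 CPM and 3.78, 11.9 and 16.6 CPM in D1 and D2 ventral striatum. All 4 groups overlapped. The D1 minus D2 difference was -0.17 in dorsal (interval -0.48 to 0.13) and 0.02 in ventral striatum (interval -0.29 to 0.34), and dorsal minus ventral was 0.01 in D1 (interval -0.23 to 0.25) and 0.20 in D2 neurons (interval -0.17 to 0.57). The ventral line difference changed sign under several alternatives, as did the dorsal minus ventral difference in D1.

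Htr1a, the receptor that acts as the inhibitory autoreceptor of raphe neurons and is known on cortical pyramidal cells, was sparse in striatum and depended on the region in D2 neurons. Its lowest, median and highest library were 0.0812, 1.30 and 2.50 CPM in D1 and 0, 0.201 and 1.07 CPM in D2 dorsal striatum. In ventral striatum they were 0.379, 1.97 and 3.03 CPM in D1 and 0.640, 1.53 and 3.01 CPM in D2, and 12 of 14 D2 ventral libraries lay above all D2 dorsal ones. Against ventral striatum, Htr1a was lower in the dorsal part by -1.5 (SE 0.19, limma adjusted p = 1.29e-07) in D2 neurons, and by -0.49 in D1 neurons, which missed the threshold (SE 0.21, limma adjusted p = 0.0681). The interaction was 1.01 (SE 0.29, limma adjusted p = 0.0372), and its size ran from 0.43 to 1.9 over all settings. Its call was lost in several alternatives, such as a pseudocount of 2 CPM (adjusted p = 0.0788). The same held without library 13 of D1 dorsal striatum (0.054) or library 2 (0.0528) or 6 (0.0539) of D2 ventral striatum. The D2 regional difference was tested mostly because of the ventral libraries, and was also called with no minimum level (adjusted p = 3.7e-07). In dorsal striatum too few libraries reached 1 CPM for a test of the lines; with no minimum Htr1a was higher in D1 libraries by 1.07 (SE 0.22, limma adjusted p = 0.000586). In ventral striatum the line difference was 0.07 (interval -0.30 to 0.43).

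Htr1a also moved with the cortical markers among the D1 libraries of ventral striatum. In the 15 D1 ventral striatal libraries its log2 level went with the summed cortical projection neuron markers at Pearson r = 0.84 (permutation test, adjusted p = 0.00285 over a family of 57 correlations of receptors with cortical or choroid plexus markers within a group) and Spearman rho = 0.93 (adjusted p = 0.00057). Without the 2 libraries farthest from the median of the marker sum, r was 0.77 over 13 libraries (adjusted p = 0.117; rho = 0.90, adjusted p = 0.00456), and among 11 EM libraries 0.82 (adjusted p = 0.115; rho = 0.87, adjusted p = 0.0485). In D1 dorsal striatum it did not pass, with r at 0.65 over 15 libraries (adjusted p = 0.22) and 0.37 among 11 EM libraries (adjusted p = 0.924). No correlation with the choroid plexus markers passed over all libraries of a group; among the 8 EM libraries of D2 ventral striatum that of Htr1a passed by Pearson r (0.93, exact permutation test, adjusted p = 0.0339) and not by rho (0.86, adjusted p = 0.204), and over all 14 libraries r was 0.46 (adjusted p = 0.392). With the marker sum as a covariate the interaction of Htr1a was 0.62 and was lost (adjusted p = 0.127); the part of cortical RNA in the striatal Htr1a values was not tested otherwise.

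Htr4, a Gs-coupled receptor, was low in most D1 libraries of dorsal striatum and below 1 CPM in every cortical library. In D1 dorsal striatum its lowest, median and highest library were 0.161, 0.437 and 3.37 CPM, with libraries 3 and 13 at 3.21 and 3.37 CPM above the other 13. In D2 dorsal striatum they were 0.330, 1.98 and 4.90 CPM, in D1 ventral striatum 1.15, 1.88 and 3.62 CPM, and in D2 ventral striatum 0.962, 2.84 and 4.61 CPM. The lines overlapped in both regions, and in dorsal striatum those 2 D1 libraries lay above the D2 median. Htr4 was lower in D1 than in D2 libraries of dorsal striatum by -1.02 (SE 0.25, limma adjusted p = 0.00244), and in D1 neurons it was lower in the dorsal part by -1.22 (SE 0.21, limma adjusted p = 2.61e-05), or -1.5 without libraries 3 and 13. These differences are a description: Htr4 reached 1 CPM in all 15 D1 ventral libraries and in 2 D1 and 13 D2 libraries of dorsal striatum, so it was tested only or mostly because of the group where it was higher. With no minimum level, so that all genes with a read were tested, the adjusted p-values were 0.00531 between the lines and 9.3e-05 between regions. The ventral line difference of -0.27 (interval -0.62 to 0.08) and the D2 regional difference of -0.47 (limma adjusted p = 0.106) did not pass. The dorsal line difference was -0.70 and lost with the letters of the library name as a covariate (adjusted p = 0.123), and turned to 0.34 with the cortical marker sum as a covariate (adjusted p = 0.826). Within D2 dorsal striatum, Htr4 averaged 1.31 ± 0.706 CPM (SD, n = 8) in EM and 2.54 ± 1.10 CPM (SD, n = 8) in OdP libraries, a log2 difference of -0.79 (SE 0.27, limma adjusted p = 0.0291, with 30.2% of 10939 genes called). What these letters stand for is not stated, and no D1 library of dorsal striatum bears the name OdP.

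Htr7, which couples to Gs, was highest in D2 neurons of ventral striatum. Its lowest, median and highest library were 0, 0.347 and 0.776 CPM in D1 and 0.152, 0.589 and 1.94 CPM in D2 dorsal striatum. In ventral striatum they were 0.0699, 0.611 and 2.32 CPM in D1 and 0.846, 1.34 and 3.29 CPM in D2. The ranges overlapped, as 3 of the 14 D2 ventral libraries lay above every D1 ventral library and 5 above every D2 dorsal one. In ventral striatum Htr7 was lower in D1 libraries by -0.90 (SE 0.19, limma adjusted p = 0.000288) and lower in dorsal than in ventral D2 neurons by -0.81 (SE 0.19, limma adjusted p = 0.00156). Of the libraries at 1 CPM in these comparisons 11 were D2 ventral and 3 of the other group; with no minimum level the adjusted p-values were 0.000723 and 0.00255. The line difference was -0.60 with an adjusted p of 0.132 when the share of reads in genes was a covariate, and -0.71 with 0.105 with the cortical marker sum. Among OdP libraries alone the D2 regional difference was -0.82 and did not pass (adjusted p = 0.0857).

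Htr1f, a Gi-coupled receptor, and Htr6, a Gs-coupled receptor that is largely a brain gene, were low, with no striatal group mean above 1.44 CPM. Htr1f averaged 0.863 ± 0.309 CPM (SD, n = 15) in D1 dorsal and 1.43 ± 0.322 CPM (SD, n = 15) in D1 ventral striatum, with 9 of 15 ventral libraries above all dorsal ones. Of these D1 libraries 14 ventral and 4 dorsal ones reached 1 CPM. That difference was -0.51 (SE 0.12, limma adjusted p = 0.000776, or 0.000688 with no minimum level), and -0.27 with an adjusted p of 0.114 after quantile normalization. In D2 neurons Htr1f averaged 0.403 ± 0.290 CPM (SD, n = 16) in dorsal and 1.44 ± 0.792 CPM (SD, n = 14) in ventral striatum and had too few libraries at 1 CPM for a test of region. Htr6 averaged between 0.708 and 1.03 CPM in the 4 striatal groups and was tested between the lines in ventral striatum (0.13, interval -0.25 to 0.51), between regions in D2 neurons (0.10, interval -0.37 to 0.58) and for the interaction (-0.39, interval -0.94 to 0.16), and passed none of these.

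**Figure D4:**
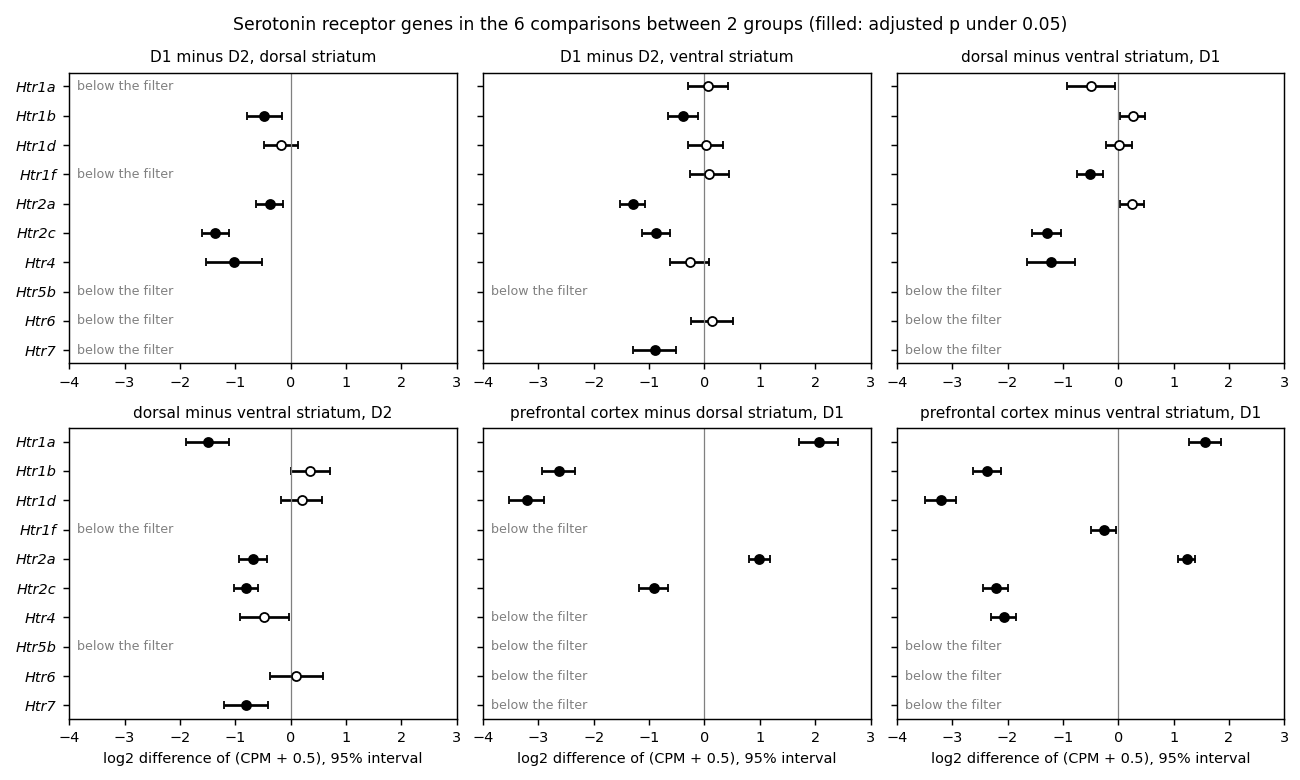
Log2 difference of each receptor in each of the 6 comparisons of 2 groups, with 95% intervals from limma, filled where the adjusted p is below 0.05. Every called difference between the lines, and between dorsal and ventral striatum, is below 0 at the deposited scaling and the minimum level of 1 CPM.

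Counted over the receptors that reached 1 CPM often enough to be tested, the called differences in striatum were all below 0 at the deposited scaling, and some above 0 appeared under other settings. Between the lines in dorsal striatum 4 of 5 tested receptors were called, all lower in D1, where 25.9% of all 11090 tested genes were called and 13% were called lower; their median difference was -0.48 against 0.02 over all genes. With no minimum level 7 of 10 were called in dorsal striatum, 5 lower and 2, Htr1a and Htr1f, higher in D1 (17.2% of 19281 genes called), and among EM libraries 3 of 5 were called (12.3% of 11335 genes), of which Htr1a was higher in D1 (1.11). In ventral striatum 4 of 9 were called, all lower in D1, against 47.7% of 11410 genes called and 23.6% called lower, with medians of -0.27 and 0.02. Scaling to reads in genes moved the all-gene median there to 0.13 and the genes called higher and lower in D1 from 2751 and 2692 to 3702 and 1898 (in dorsal striatum from 1424 and 1447 to 1711 and 1153), and it left 2 of the receptors, Htr2c and Htr4, called in dorsal striatum. Between dorsal and ventral striatum 3 of 7 were called in D1 and 4 of 8 in D2 neurons, all lower in dorsal striatum, against 34.6% and 28.5% of genes called and 24.5% and 20.6% called lower. These regional counts are a description only: in D1 neurons Htr4 was tested because of its ventral libraries alone and Htr1f mostly because of them, as were Htr1a and Htr7 in D2 neurons. Over all genes the median of the regional difference was -0.12 in either line and near 0 (-0.01 and 0.00) with median-ratio scaling, which moved the numbers of genes higher and lower there from 1144 and 2774 to 1678 and 1631 in D1, and from 887 and 2302 to 1367 and 1357 in D2. With that scaling 5 receptors were called in either line, as Htr1b became higher in dorsal striatum in D2 neurons (0.48, adjusted p = 0.0443; also called with edgeR, DESeq2 and array weights), and in D1 neurons Htr1b at 0.37 (adjusted p = 0.0111) and Htr2a at 0.35 (adjusted p = 0.0115) became higher in dorsal striatum. Over all genes that scaling called 29.2% in D1 and 24.3% in D2 neurons. The count in D1 neurons was also 5 without library 4 (37.1% of genes called) and 6 without library 13 (38.2%) of D1 dorsal striatum. For the interaction 2 of 9 receptors were called, Htr1a and Htr2a, against 2.64% of 11873 genes, with 229 above and 84 below 0 (191 and 119 when scaled to reads in genes). The line comparisons of a region and the region comparisons of a line share libraries, so these counts are not independent of each other. Of these, 1 receptor did not overlap between the lines in dorsal striatum (Htr2c) and 1 in ventral striatum (Htr2a), against 1.18% and 1.34% of genes. Between regions it was 1 in D1 (Htr2c) and 0 in D2 neurons, against 2.65% and 1.46% of genes.

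Receptor levels in the D1 libraries of prefrontal cortex differed from those in the D1 libraries of striatum. Htr1a ran from 3.98 to 14.6 CPM in cortex (median 6.28) and Htr2a from 13.5 to 20.4 CPM (median 16.1), above every D1 library of dorsal or ventral striatum. Htr1b ran from 0.772 to 4.00 CPM (median 2.62), Htr1d from 0.166 to 1.54 CPM (median 0.752) and Htr4 from 0 to 0.419 CPM (median 0.0716, 5 libraries at 0). Htr1b and Htr1d in cortex thus lay below every D1 library of striatum, and Htr4 below every D1 library of ventral striatum. Htr2c ran from 2.56 to 7.70 CPM (median 4.50) in cortex, below all D1 ventral libraries but not below all dorsal ones, of which 11 of 15 lay above every cortical library.

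Against D1 dorsal striatum the cortical libraries were higher in Htr1a by 2.06 (SE 0.18, limma adjusted p = 2.2e-13) and in Htr2a by 0.99 (SE 0.09, limma adjusted p = 4.73e-12). They were lower in Htr1d by -3.21 (SE 0.16, limma adjusted p = 6.68e-21), in Htr1b by -2.63 (SE 0.15, limma adjusted p = 6.97e-19) and in Htr2c by -0.92 (SE 0.13, limma adjusted p = 4.18e-08). These were all 5 receptors tested, where 54.8% of 11654 genes were called (cortex was above striatum for 3766 of them and below for 2622, or 3119 and 3472 with edgeR), and for 4 of the 5 the groups did not overlap (10.5% of genes). Against D1 ventral striatum Htr1a was higher by 1.57 (SE 0.14) and Htr2a by 1.24 (SE 0.07), and Htr1d was lower by -3.2 (SE 0.14), Htr1b by -2.37 (SE 0.13), Htr2c by -2.21 (SE 0.11) and Htr4 by -2.07 (SE 0.12), with limma adjusted p-values of at most 1.35e-12. Htr1f was lower by -0.27 (SE 0.11, limma adjusted p = 0.0384), a call lost under several alternatives, such as EM libraries alone (-0.11, adjusted p = 0.443). Htr4 reached the minimum of 1 CPM through the ventral striatal libraries alone and so had to differ. The other 6 tested receptors were called as well, where 62.8% of 11749 genes were called, and all of them but Htr1f did not overlap (12.6% of genes). The cortical libraries are shared between these comparisons. The cortical marker sum of 546 CPM, the interneuron marker sum of 148 CPM and the astrocyte marker sum of 23.9 CPM (against 5.62 and 3.61 CPM in D1 dorsal and ventral striatum, with 4 of 4 markers called higher in cortex against either) moved with the cortical group, and their part in these differences was not tested.

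Within a library Htr1b and Htr1a changed places between striatum and cortex. Htr1b minus Htr1a on the log2(CPM + 0.5) scale averaged 3.51 in D1 dorsal, 5.06 in D2 dorsal, 2.75 in D1 ventral and 3.2 in D2 ventral striatum, and Htr1b was the higher in every striatal library. In prefrontal cortex it averaged -1.18 and Htr1a was the higher in 19 of 19.

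Levels of different receptors can be compared only per length, and for this CPM was divided by the exonic length in kilobases. In D1 dorsal striatum Htr1b (3.93 ± 1.03 CPM per kb, SD, n = 15) and Htr1d (3.51 CPM per kb) led, and their gap was within the spread; Htr2a (1.5) and Htr2c (0.952 CPM per kb) followed, each apart from the next by more than both SDs. In D2 dorsal striatum the order was Htr1b (5.56 ± 1.38 CPM per kb, SD, n = 16), Htr1d (4.02), Htr2c (2.47) and Htr2a (1.97), and each gap was larger than both SDs. Htr2c thus stood before Htr2a in D2 and after it in D1 neurons of dorsal striatum. In D1 ventral striatum Htr1d (3.42 CPM per kb) and Htr1b (3.17) did not differ beyond their spread and led Htr2c (2.39) and Htr2a (1.24). In D2 ventral striatum Htr2c (4.43), Htr1b (4.33), Htr1d (3.55) and Htr2a (3.22 CPM per kb) followed one another with no gap beyond the spread. Prefrontal cortex had another order, with Htr2a at 3.02 CPM per kb, Htr1a at 1.45, and then Htr1b at 0.553, Htr2c at 0.473 and Htr1f at 0.437 CPM per kb, the last 3 not apart beyond their spread. The deposited table does not say which transcript lengths were counted, so these levels use the union of annotated exons.

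**Figure D5:**
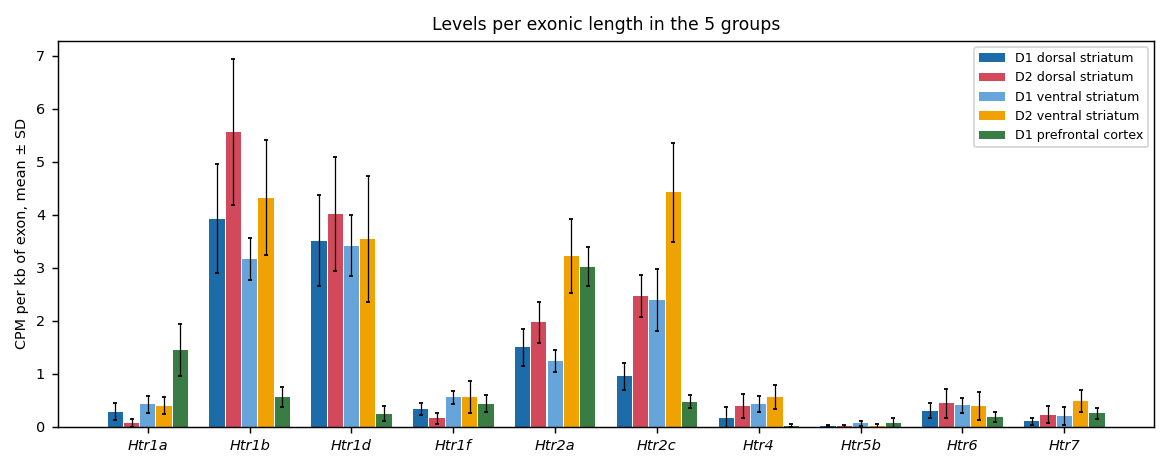
Mean CPM per kilobase of exon for each receptor in each group, with SD bars over libraries. Htr1b and Htr1d lead in dorsal striatum, 4 receptors stand close together in D2 ventral striatum, and Htr2a and Htr1a lead in prefrontal cortex.

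Receptors also went together across libraries. Htr1b and Htr1d had a Pearson r of 0.95 over all 79 libraries and 0.58 after each group's mean was removed, Htr2c and Htr4 of 0.84 and 0.16, and Htr1a and Htr1b of -0.80 and -0.08. Only the Htr1b and Htr1d pair of these 3 kept a sizeable r within groups; libraries share depth and dissection, and the values describe these libraries. Among 12362 genes, those most like Htr1b over the 79 libraries were Pde10a (r = 0.97), Pde7b (0.96) and Gprin3 (0.96), the first 2 of which encode phosphodiesterases, and those most like Htr1d were Bcr, Gng7 and Pde7b (each 0.96). Htr2c was most like Gpr149 (0.93), Zc3h12c (0.92) and Zbtb20 (0.91), and Htr4 like Clip4 (0.85), Kctd8 and Gpr149 (each 0.84). Htr1a was most like Lypd6 (0.92), Fam81a (0.91) and Ak4 (0.91), and Htr2a less closely like Atg7 (0.78), Cdh10 (0.77) and Ndst3 (0.76). The closest genes reached 0.74 for Htr1f (Tcte2), 0.72 for Htr6 (Rasl10b) and 0.60 for Htr7 (Sox2). With group means removed, the closest were Kazn for Htr1b (0.84), Grm5 for Htr2c (0.71), Smg5 for Htr1d (0.65), Slc30a3 for Htr1a (0.61) and Btbd11 for Htr2a (0.53).

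Other genes of serotonin signalling were followed as 5 lists: 3 further receptors, 8 genes of synthesis, transport and breakdown, 6 adaptors, 3 genes of the RNA editing family and 12 G proteins and effectors. Among receptors, Htr3a, the serotonin-gated ion channel, averaged 8.41 ± 2.35 CPM (SD, n = 19) in D1 prefrontal cortex and at most 0.410 CPM in striatum, and Htr5a averaged 16.3 CPM in cortex and 4.31 to 6.86 CPM in striatum. Both rose in cortex against D1 dorsal striatum (3.40 and 1.22) and ventral striatum (3.77 and 1.33). Within striatum only Htr5a of this list was tested. In dorsal striatum it was called higher in D1 than in D2 libraries (0.59), where 25.9% of all genes were called. In D2 neurons it was called lower in the dorsal part (-0.47), where 28.5% were called. Its ventral line difference (0.01) and D1 regional difference (0.11) were not called. Of the adaptors, S100a10 (p11), which binds Htr1b and Htr4, was higher in the dorsal part by 2.08 (SE 0.15, limma adjusted p = 9.72e-14) in D1 and 1.67 (SE 0.21, limma adjusted p = 1.3e-07) in D2 neurons. Of 6 adaptors tested, 2 passed as higher and 1 as lower in the dorsal part in D1, and 1 and 1 in D2 neurons, where 34.6% and 28.5% of all genes were called.

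Adar and Adarb1 encode enzymes that edit RNA, and Adarb2 a related protein with no shown editing activity. Between the lines 2 of these 3 were called higher in D1 in dorsal and 3 of 3 in ventral striatum, where 25.9% and 47.7% of all genes were called in either direction; Adarb2 differed by 1.48 and 1.19, Adar by 0.31 and 0.43. Of 12 G proteins and effectors, 2 were called higher and 3 lower in D1 in dorsal, and 4 higher and 5 lower in ventral striatum, against the same shares of all genes. Gnai1, an inhibitory subunit used by 5-HT1 receptors, was higher in D1 by 1.54 and 0.73 (interaction 0.81, limma adjusted p = 0.00835), and Gnal, the stimulatory subunit of striatal neurons, was lower in D1 by -0.72 and -0.58. In prefrontal cortex 6 of the 12 were called higher and 3 lower against D1 dorsal striatum, and 6 higher and 4 lower against D1 ventral striatum, where 54.8% and 62.8% of all genes were called, with Gnas at 2.51 and 1.97 and Plcb4 at 2.07 and 2.14, while Adcy5, the striatal adenylyl cyclase, was at -3.39 and -2.82. Of the synthesis and breakdown genes Ddc was lower in dorsal than in ventral striatum by -2.06 in D1 and -1.89 in D2 neurons, and the monoamine oxidase genes Maoa (0.85 and 0.55) and Maob (1.35 and 1.36) were higher in cortex against dorsal and ventral striatum. In all, 2 of 4 tested were called lower in dorsal striatum in either line. In cortex 2 of 3 were called higher against dorsal striatum, and 2 higher and 1 lower of 4 against ventral striatum. Between the lines 0 of 3 were called in dorsal striatum, and 1 higher and 3 lower of 4 in D1 in ventral striatum. The shares of all genes called were those given above.

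Each pool with a full sex label held 1 or 2 males among its 3 mice. Pools with 2 males were compared with pools with 1 over all groups, leaving out 2 cortical libraries without a full sex label. None of 9 tested receptors was called, 2 of them stood below an unadjusted p of 0.05, and 0.0651% of 12290 genes were called. The largest difference was that of Htr1b, higher with 2 males by 0.36 (SE 0.09, limma adjusted p = 0.0639). It was 0.42 among EM libraries (adjusted p = 0.0492, with 1.81% of 12448 genes called). With DESeq2 it was 0.35 (adjusted p = 0.0472, with 0.692% of genes called), and with edgeR also 0.35 (adjusted p = 0.102). The call thus rests on the setting.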

How the data were processed

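Ribosome-bound mRNA of 79 pools was measured by RNA sequencing of amplified cDNA, read as 50-base pairs per the labels' protocols. The authors deposited CPM values; the submitters' processing notes name Trim Galore 0.4.2, cutadapt 1.9.1, FastQC, HISAT2 and the build GRCm38, with no role or order. The counting program, its use of strand and the total used for scaling are not given in the sources used here. Column names were matched to sample titles (0 unmatched). Deposited CPM values were whole multiples of 1 step per column, so whole reads were recovered for 100% of values (tolerance 0.0001 reads) and used for edgeR 4.0.16 and DESeq2 1.42.0 as alternatives (edgeR called between 9 genes, for males in the pool, and 7277, for cortex against ventral striatum). Between 31.0% and 40.2% of the scaling total lay in listed genes, so a smaller share lowers all CPM of a library alike.

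Groups came from the labelled receptor and region. Each comparison used its own 2 groups, limma 3.58.1 in R 4.3.3 with a mean-variance trend on log2(CPM + 0.5), genes at 1 CPM or more in a number of libraries no smaller than the smaller group, and two-sided Benjamini-Hochberg adjusted p-values over all genes tested, with a threshold of 0.05. The interaction fit held the 4 striatal groups; the fit of males in the pool had group as a term. The labels do not pair libraries, and replicate numbers follow accession order. Correlations used 100000 permutations, or all orders at n = 8. Genes most like a receptor were the 3 with the highest Pearson r among genes averaging at least 1 CPM. The fits were tested on simulated data. One gene of the cortical marker list is not reported here, and the list was summed without it. The receptors, lists and named genes were chosen with earlier results of these data known. Alternatives were other scalings, pseudocounts, filters, covariates, library subsets and tests; those leaving out 1 or several named libraries, and the fit of OdP libraries alone, were added after seeing the data. Reads are not independent molecules, so the worth of 3 reads covers counting error only. Sequences and promoter windows are RefSeq's (GRCm38.p6).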

Additional observations from a re-analysis of the deposited data

Results flagged for a closer look

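For 2 receptors the difference between the D1 and the D2 line itself differed between dorsal and ventral striatum, by the test of that difference (limma interaction term over the 4 striatal groups). For Htr2a the interaction was 0.92 (SE 0.16, limma adjusted p = 0.00011): the D1 minus D2 difference was -0.38 in dorsal and -1.30 in ventral striatum. For Htr1a it was 1.01 (SE 0.29, limma adjusted p = 0.0372): the mean was 1.28 CPM in D1 and 0.328 CPM in D2 dorsal striatum, and 1.9 and 1.78 CPM in ventral striatum. Cortical marker sums were higher in D1 than in D2 libraries in both regions, at 75 against 7.97 CPM in dorsal and 54.0 against 12.8 CPM in ventral striatum. With that sum as a covariate Htr1a was at 0.62 and lost its call (adjusted p = 0.127), and Htr2a at 0.83 kept it (adjusted p = 0.000857), in a fit with 1 slope of the sum for all 4 groups. With the sum fitted in each region apart, the Htr2a line differences were -1.09 in dorsal and -1.30 in ventral striatum, closer to each other than that interaction, and the interaction with a slope for each region was not tested.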

How the results depend on the processing

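Over 978 values of 51 receptor results under alternative settings, 864 kept direction and side of the threshold, and 20 of the 29 called results did so under every alternative run; of 547 values of called results, 36 lost the call and 1 changed sign. That one was Htr4 between the lines in dorsal striatum, at 0.34 with the cortical marker sum as a covariate. The number of receptors called between the lines in dorsal striatum, 4, was 2 with scaling to reads in genes (25.8% of all genes called), with the name letters as a covariate (15%) or with the cortical sum as a covariate (1.33%), and 7 with no minimum level (5 lower, 2 higher; 17.2%), where 25.9% of genes were called at the main setting. In ventral striatum, 4, it was 2 among EM libraries (40.1% of all genes called), with the share of reads in genes (10.7%) or with the cortical sum as a covariate (12.5%), against 47.7%. Under these covariates calls were thus lost over all genes and not in the receptors alone. Dorsal against ventral striatum in D1, 3 (34.6% of all genes called), gave 5 with median-ratio scaling (29.2%), edgeR (28.6%) or DESeq2 (30.6%). It gave 6 with array weights (50.5%), and 5 to 6 without library 4, 13, both, or 3 and 13 of D1 dorsal striatum (37.1% to 42.4%). Cortex against dorsal striatum, 5 (54.8% of all genes called), gave 8 with no minimum (41.9% of 19963 genes). The interaction, 2 (2.64% of all genes called), gave 1 with scaling to reads in genes, quantile normalization, a pseudocount of 2 CPM or no minimum (1.51% to 3.09%). The cortical or choroid plexus sum as a covariate also gave 1 (4.16% and 2.52%). It gave 3 with the name letters as a covariate (4.04%, with Htr2c at -0.50, adjusted p = 0.0361). Array weights gave 4 (6.91%), adding Htr1f above 0 and Htr4 at -0.90 (adjusted p = 0.0131). Over all settings the Htr1f interaction ran from 0.23 to 1.13. Leaving out library 13 of D1 dorsal striatum, or library 2 or 6 of D2 ventral striatum, gave 1 (2.44% to 2.73%). So did leaving out libraries 4 and 13 of D1 dorsal, 6 of D2 dorsal and 6 and 7 of D2 ventral striatum together (3.47%). Males, 0, gave 1 among EM libraries, where 1.81% of 12448 genes were called. It also gave 1 with DESeq2, which called 85 genes in all (0.692%) where limma called 8 (0.0651%). Of the correlations, 0 passed by Pearson r without the 2 libraries farthest from the median, and 1 did among EM libraries (Htr1a with choroid plexus markers in D2 ventral striatum). Of 27 genes most like a receptor, 13 were also named by Spearman rho. The cause was not tested for any of these.

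Signs changed only for uncalled differences otherwise. D1 minus D2 in ventral striatum changed for Htr1a (-0.058 with quantile normalization, -0.017 EM, -0.15 share covariate, -0.65 cortical covariate), Htr1d (-0.12 share, -0.058 edgeR, -0.062 array weights, -0.067 DESeq2, and -0.083 to 0.054 without library 2, 6 or 7 of D2 ventral striatum or all 3), Htr1f (-0.11 quantile, -0.019 edgeR, -0.036 DESeq2, -0.028 array weights, and -0.063 to 0.091 without such libraries), Htr4 (0.21 cortical) and Htr6 (-0.18 quantile, -0.012 EM, -0.36 share, -0.097 cortical). Dorsal minus ventral changed for Htr1d in D1 (-0.053 EM, -0.0044 name letters, -0.017 cortical, -0.029 choroid) and Htr6 in D2 (-0.14 EM, -0.18 share). The interaction of Htr1b (-0.09) changed to 0.022 (share), 0.0035 (cortical) and 0.0025 (array weights), and ran from -0.21 to 0.083 without libraries. No paired analysis was run. The labels do not say whether dorsal, ventral and cortical tissue was taken from shared mice. Library names carry running numbers, but no label says that neighbouring numbers share mice. Tests between regions treat libraries as independent, so their p-values take no account of any shared mice. Receptors near 1 CPM rest on few reads (a median of 13 to 136 for Htr7 and Htr4 in striatum), which limits what can be seen of them.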
